A study of Mus musculus with 12 samples.

Results

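The 34 genes described here are known markers of macrophages, the tissue-resident and blood-derived phagocytes, together with the chains of complement C1q, which macrophages secrete. They were taken by symbol from the FPKM table of the series, and all 34 were among its 23234 symbols. FPKM divides the fragments of a gene by its length and by the size of the library. The libraries were made with a low-input cDNA kit from total RNA of C57BL/6 mouse islets in 3 groups of 4: isolated islets, islets 60 days after transplantation and islets 120 days after it, the site being inguinal subcutaneous white fat according to the title of the series. The labels give no further treatment, genotype or age, and they number the libraries without saying that they came from separate animals. The p-values therefore set each difference between groups against the spread among these libraries, and that spread may be technical. The question put to the genes was whether grafts in fat carry more macrophage RNA than the islets did before transplantation, and whether genes of resident, scavenging and lipid-associated macrophages keep the same proportions.

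Macrophages depend on the receptor Csf1r and on the transcription factor PU.1. In fat, macrophages that express Mrc1, Cd163 and Folr2 are known as a resident, vessel-associated population, whereas macrophages that take up lipid from adipocytes express Trem2 and Gpnmb. C1q is built from A, B and C chains and binds antibody and dying cells to start the classical complement pathway. Its genes C1qa, C1qb and C1qc lie side by side. Scavenger receptors such as Msr1 and Marco bind modified lipoproteins and microbes.

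The proximal promoters of 4 of these genes are shown because the genes stand for C1q, resident and lipid-associated macrophages and because each window holds the PU.1 core motif. The windows are the 250 bases before the annotated start in RefSeq (GRCm38.p6, a later build than the mm9 used for the FPKM), written 5′ to 3′ on the strand of the gene. Capitals mark the motif, which reads GAGGAA on the strand of the gene or TTCCTC where it lies on the opposite strand. The windows are chr4:136886201-136886450 for C1qb and chr4:136892915-136893164 for C1qc, both on the minus strand, chr2:14229164-14229413 for Mrc1 and chr17:48346151-48346400 for Trem2, both on the plus strand.
C1qb: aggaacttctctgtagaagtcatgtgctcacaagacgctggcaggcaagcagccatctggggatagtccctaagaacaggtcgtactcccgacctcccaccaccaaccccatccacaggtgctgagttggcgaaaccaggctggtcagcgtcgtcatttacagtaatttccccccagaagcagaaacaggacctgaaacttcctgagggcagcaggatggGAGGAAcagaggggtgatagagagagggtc
C1qc: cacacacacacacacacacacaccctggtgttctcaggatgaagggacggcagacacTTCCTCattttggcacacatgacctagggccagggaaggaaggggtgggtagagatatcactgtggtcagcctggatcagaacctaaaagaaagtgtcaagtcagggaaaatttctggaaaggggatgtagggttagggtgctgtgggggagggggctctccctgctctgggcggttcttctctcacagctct
Mrc1: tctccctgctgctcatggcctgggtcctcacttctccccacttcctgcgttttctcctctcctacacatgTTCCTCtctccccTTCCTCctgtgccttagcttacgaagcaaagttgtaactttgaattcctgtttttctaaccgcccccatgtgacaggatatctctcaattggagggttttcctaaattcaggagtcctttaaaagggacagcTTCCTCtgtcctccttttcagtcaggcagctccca
Trem2: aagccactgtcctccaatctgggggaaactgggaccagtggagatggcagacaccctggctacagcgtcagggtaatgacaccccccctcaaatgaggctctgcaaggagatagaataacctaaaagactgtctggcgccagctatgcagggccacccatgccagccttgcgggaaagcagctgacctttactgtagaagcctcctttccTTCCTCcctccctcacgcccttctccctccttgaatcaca
The C1qb match lies at position -30 and the Trem2 match at position -40, counted from the annotated start, with -1 as the base before it. Mrc1 holds 3 matches. Of the 34 genes, 26 had a window in the RefSeq table, and 13 of these (50%) held the motif on either strand, against 6986 of 27025 symbols (25.9%) with a window of the same length. A match is a run of letters and not a measured binding site.

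Some facts of the whole series bear on every value below. FPKM summed to between 396769 and 786366 per library, and the read depth is unknown. Iapp, a beta cell product, was at 16932 to 48065 FPKM across all 12 libraries, and the acinar enzyme genes summed to 5162 to 59222 FPKM in isolated islets and to at most 1.39 FPKM in any graft. An exact 0 in this table can be a failed estimate, since the insulin gene Ins1 is listed at 0 in graft day 60 replicate 4 beside 36263 FPKM of Iapp. Graft day 60 replicate 1 stood apart: it held the highest day 60 value of 33 of the 34 genes, and also 3284 FPKM of the fibroblast gene Dcn and 981 FPKM of the adipocyte gene Adipoq, against at most 555 and 312 FPKM in the other day 60 grafts. Fibroblast, adipocyte and red blood cell markers were higher in every graft than in any isolated islet library, and the part of that tissue in the results was not tested.

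All 34 genes together took a larger share of the FPKM in grafts than in islets. They summed to 97.3 to 154 FPKM per isolated islet library, to 883 to 7294 FPKM per day 60 graft and to 563 to 983 FPKM per day 120 graft. As a share of all FPKM this was 0.0125% to 0.0358% in isolated islets, 0.206% to 1.26% at day 60 and 0.121% to 0.21% at day 120. No graft overlapped any isolated islet library in this share. In bulk RNA, more cells of a type and more RNA per cell cannot be told apart.

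**Figure D1:**
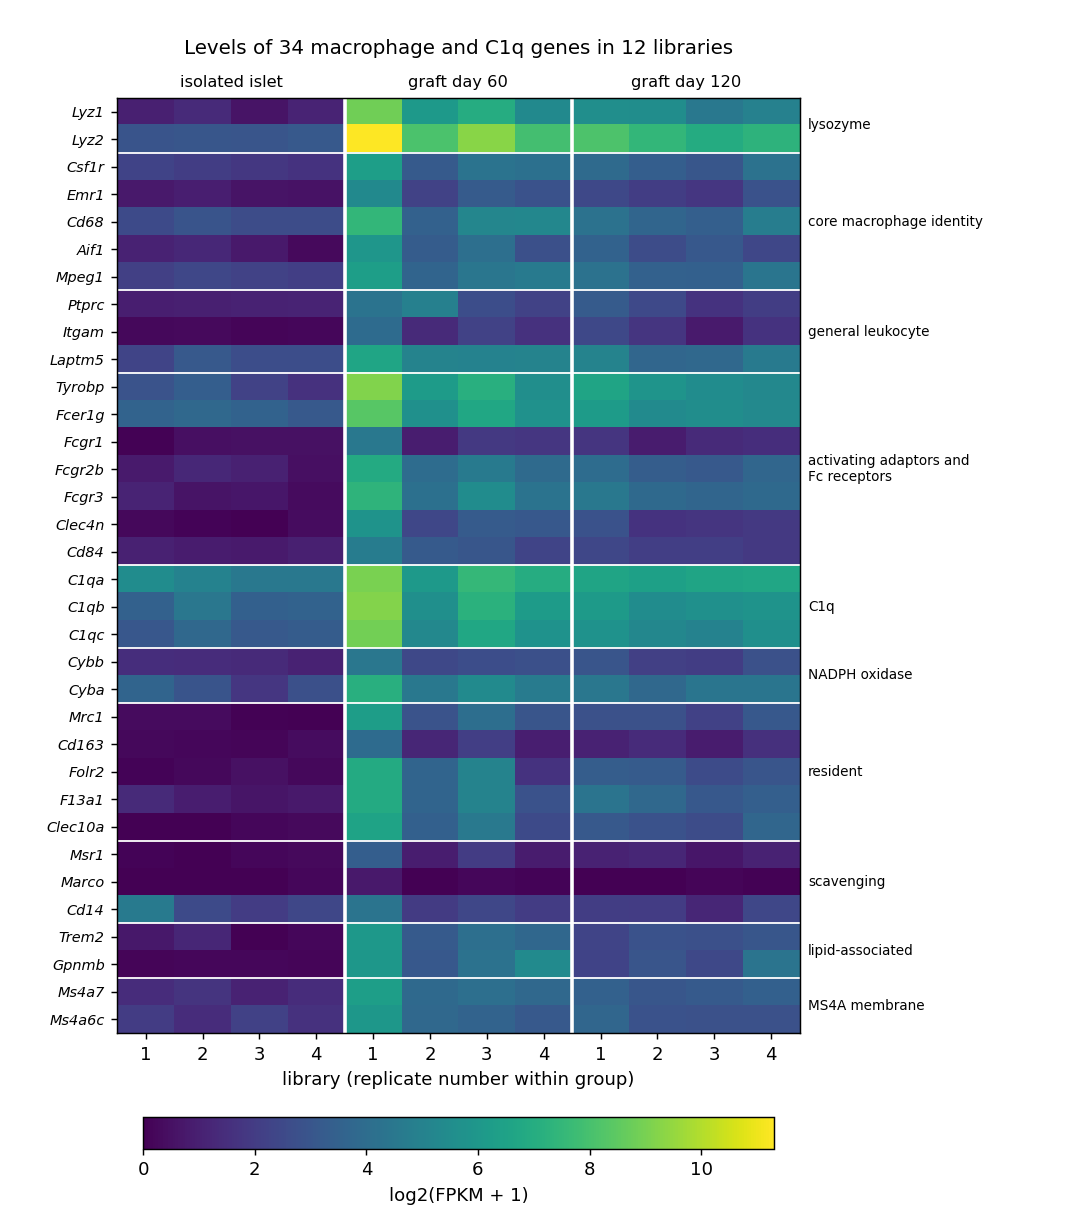
Levels of the 34 genes (rows, grouped by role) in the 12 libraries (columns, by group and replicate number), as log2(FPKM + 1). Graft day 60 replicate 1 held the highest day 60 value of 33 genes, and in isolated islets C1qa and C1qb were the highest rows by mean.

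At day 60, 32 of the 33 genes that could be tested were higher than in isolated islets, none was lower, and Cd14 did not pass. The test was limma on log2(FPKM + 1) with Benjamini-Hochberg adjustment over the 13433 genes that reached 1 FPKM in at least 4 libraries, with a threshold of 0.05. Over all tested genes 31.3% were called higher and 12.3% lower. The median difference of the 33 genes was 3.09 on the log2(FPKM + 1) scale, against 0.27 for all tested genes. The same 32 genes had every day 60 graft above every isolated islet library, a pattern that 22% of all tested genes shared. Marco was too low to test. The count was 32 again without graft day 60 replicate 1. Of the 33 genes tested, 18 were at 1 FPKM in fewer than 4 isolated islet libraries and entered the test only with the help of the grafts, so their calls were in part set by the filter. The 15 genes at 1 FPKM or more in all 4 isolated islet libraries carry no such limit, and 14 of them were higher at day 60.

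At day 120, 26 of the 33 genes were higher than in isolated islets and none was lower, against 24.3% of all tested genes called higher and 7.03% called lower. The genes that did not pass were Cd68, Ptprc, Fcgr1, Cd163, Msr1, Cd14 and Ms4a6c, with adjusted p from 0.0673 to 0.231 (limma). The limit set by the filter holds here too, and 12 of the 15 genes free of it were higher. The median difference was 1.85 on the log2(FPKM + 1) scale, against 0.30 for all tested genes. In 32 genes every day 120 graft lay above every isolated islet library, against 28.3% of all tested genes. Both graft comparisons use the same 4 isolated islet libraries and are therefore not independent. The day 120 count depended on single libraries, and was 15 when isolated islet replicate 3 was left out, 14 for replicate 4 of that group, 16 for graft day 120 replicate 1 and 17 for graft day 120 replicate 4. With a pseudocount of 5 it was 9. Of the single calls, 19 were lost under at least 1 of 24 alternatives, most often those of Cyba (11), Itgam (10), Cybb, Cd84 and Emr1 (9 each).

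The core macrophage genes set the scale for the rest. Csf1r, the receptor for the growth factors Csf1 and Il34, was listed at 3.82, 3.18, 2.56 and 2.19 FPKM in isolated islets, at 78.6, 8.11, 18.6 and 17.04 FPKM in day 60 grafts and at 14.1, 9.23, 7.03 and 18.4 FPKM in day 120 grafts. The 3 lower day 60 grafts overlapped the day 120 grafts, and every graft was above every isolated islet library. Csf1r was higher by 2.53 ± 0.51 (log2, SE; adjusted p = 0.00287, limma) at day 60 and by 1.68 ± 0.51 (adjusted p = 0.0281) at day 120. Emr1, which encodes F4/80, was under 1 FPKM in every isolated islet library and lay between 3.68 and 40.5 FPKM at day 60 and between 2.44 and 6.24 FPKM at day 120. Cd68, a lysosomal glycoprotein, was at 4.87 to 6.64 FPKM in isolated islets, 10.47 to 176 FPKM at day 60 and 9.59 to 26.9 FPKM at day 120, so that its groups were also separate although the day 120 difference did not pass (adjusted p = 0.109). Mpeg1, a pore-forming protein of phagocytes, and Aif1, an actin-bundling protein also known as Iba1, rose at both times. The general leukocyte genes Ptprc (CD45), Itgam (the integrin CD11b) and the lysosomal Laptm5 rose at day 60. Ptprc was highest in graft day 60 replicate 2, at 29.2 FPKM, where the T cell marker Cd3g stood at 20.2 FPKM. In the other day 60 grafts Cd3g was at 0.404 to 8.73 FPKM, and the part of lymphocytes in the Ptprc value was not tested. For Itgam, 66.3% of its transcript 50-mers also occur in an overlapping gene model, Gm49368, so its reads may have been split.

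The lysozyme genes had the largest differences of the 34 genes on the log2(FPKM + 1) scale. As a ratio of mean FPKM at day 60 to that in isolated islets, Gpnmb (250.3), Mrc1 (190.3) and Folr2 (189) stood above Lyz1 (167) and Lyz2 (128). So did Clec10a (325.4), and Clec4n (133.7) stood above Lyz2, but both were listed at 0 in an isolated islet library. Graft day 60 replicate 1 weighs heavily in these means, as for Mrc1 at 77.3 FPKM against 6.34 to 15.8 FPKM in the other day 60 grafts. Lyz2, the lysozyme of myeloid cells, was listed at 6.59, 7.16, 6.91 and 7.95 FPKM in isolated islets, at 2519, 274, 633 and 242 FPKM in day 60 grafts and at 280.4, 176, 122 and 155 FPKM in day 120 grafts. It ranked sixth among the 34 genes in isolated islets and was the highest of them in every graft. The difference was 6.13 ± 0.58 (log2, SE; adjusted p = 3.04e-05, limma) at day 60 and 4.43 ± 0.58 (adjusted p = 0.000569) at day 120. Lyz1, known in mouse from Paneth cells of the gut, was at 0.497 to 1.51 FPKM in isolated islets, 40.7 to 463 FPKM at day 60 and 21.95 to 46.6 FPKM at day 120. The Paneth cell genes Defa24, Defa17 and Ang4 were listed at 0 in all 12 libraries. Mmp7, the other Paneth cell marker read, was at 0.376 FPKM or less in every graft and at 7.26 FPKM in isolated islet replicate 1. Lyz1 shares 16.1% of its transcript 50-mers with Lyz2, and its FPKM ran from 0.166 to 0.257 of those of Lyz2 across the 8 grafts, so the split of reads between both genes is uncertain.

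The activating adaptors and Fc receptors all rose at day 60, and 6 of 7 at day 120, Fcgr1 being the exception. Tyrobp (DAP12), the signalling adaptor of Trem2, was listed at 6.53, 9.48, 3.71 and 2.02 FPKM in isolated islets, at 563, 72.4, 137 and 46.7 FPKM in day 60 grafts and at 96.1, 57.0, 44.0 and 37.5 FPKM in day 120 grafts. Every graft exceeded every isolated islet library. Fcer1g, the adaptor shared by Fc receptors, started from a higher islet level, at 8.03 to 13.3 FPKM, and reached 50.5 to 332 FPKM at day 60 and 39.0 to 73.3 FPKM at day 120. Tyrobp was at 0.251 to 0.714 times Fcer1g in isolated islets and at 0.899 to 1.7 times Fcer1g in the 8 grafts, with no overlap. Fcgr3, an activating receptor for IgG, rose by 4.64 ± 0.55 (log2, SE; adjusted p = 0.000159, limma) at day 60 and by 3.31 ± 0.55 (adjusted p = 0.00257) at day 120. Fcgr2b, the inhibitory IgG receptor, was below Fcgr3 in all 8 grafts, at 0.563 to 0.918 of its FPKM. In isolated islets, where both were at most 1.43 FPKM, that ratio ran from 0.667 to 2.87, and Fcgr3 shares 9.58% of its transcript 50-mers with Fcgr2b. Fcgr1, the high-affinity IgG receptor, was the lowest of the class in both graft groups by mean and lay at 0.882 to 22.3 FPKM at day 60 and 0.818 to 2.31 FPKM at day 120. Clec4n (Dectin-2), a fungal lectin receptor, was at 4.33 to 55.3 FPKM at day 60 and 2.14 to 6.20 FPKM at day 120, against 0.081 to 0.311 FPKM in 3 isolated islet libraries and a listed 0 in the other. Cd84, a receptor of the SLAM family, rose at both times, but its day 120 call was lost without any 1 of the day 120 grafts.

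C1qa and C1qb had the highest mean FPKM of the 34 genes in isolated islets, and all 3 C1q genes rose at both times. C1qa was listed at 43.6, 31.3, 21.9 and 21.9 FPKM in isolated islets, at 524, 68.1, 182 and 127 FPKM in day 60 grafts and at 95.7, 85.2, 96.2 and 102 FPKM in day 120 grafts. The day 120 values were tight, 94.7 ± 6.9 FPKM (SD, n = 4), and all above every isolated islet library. C1qb was listed at 10.4, 21.1, 10.1 and 10.9 FPKM in isolated islets, at 585, 47.8, 147 and 71.8 FPKM at day 60 and at 71.1, 43.7, 50.3 and 54.6 FPKM at day 120. C1qc followed C1qb, at 0.613 to 0.886 of its FPKM in all 12 libraries, with no group standing apart. C1qa was not so steady, at 1.48 to 4.21 times C1qb in isolated islets and at 0.895 to 1.95 times C1qb in the grafts. At day 60 C1qa rose by 2.53 ± 0.47 (log2, SE; adjusted p = 0.00186, limma), C1qb by 3.30 ± 0.59 (adjusted p = 0.00166) and C1qc by 3.34 ± 0.59 (adjusted p = 0.00157). At day 120 the differences were 1.69, 2.03 and 2.07, all past the threshold, though each lost its call without isolated islet replicate 3 or 4.

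**Figure D2:**
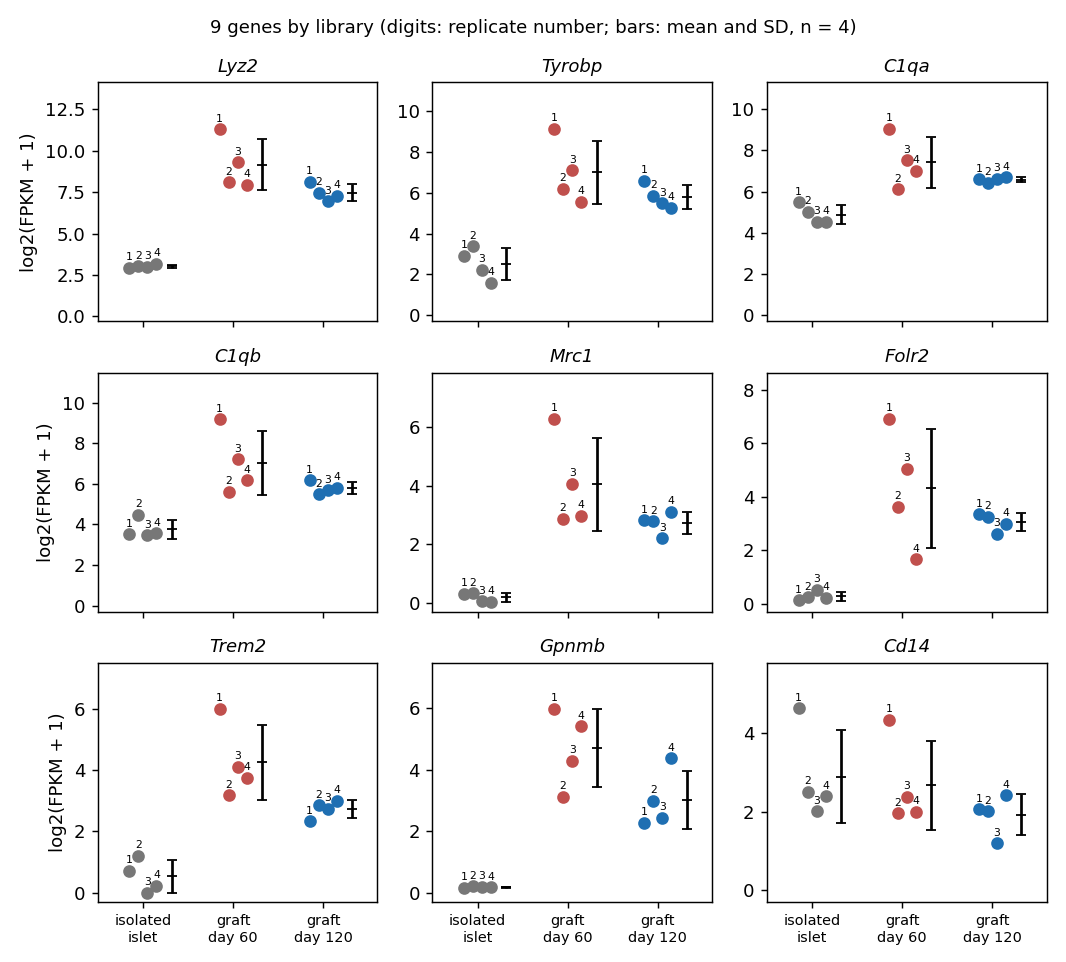
Levels of 9 genes by group as log2(FPKM + 1), with 1 point per library labelled by its replicate number and the mean ± SD (n = 4) beside each group. Every graft point lies above every isolated islet point for each gene shown except Cd14, whose groups overlap.

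The rest of the complement system was read from a list of 22 genes, of which 20 were tested. At day 60, 19 rose and 1 fell (median difference 2.77 on the log2 scale), and at day 120, 10 rose and 1 fell (median 1.51), against 31.3% and 24.3% of all tested genes called higher. The gene that fell was Clu (clusterin), an inhibitor of the terminal complex, at 48.9 to 88.5 FPKM in day 60 grafts and 53.4 to 80.0 FPKM in day 120 grafts, against 187 to 413 FPKM in isolated islets (day 60 difference -2.30 ± 0.26, log2, SE). Cfp (properdin), which stabilises the alternative pathway convertase, was at 10.53 to 111 FPKM in day 60 grafts against 0.925 to 1.48 FPKM in isolated islets. Itgb2, the beta chain shared by the complement receptors CR3 and CR4, was at 9.16 to 44.98 FPKM against 0.307 to 0.976 FPKM. C4a rose at day 60 (2.91 ± 0.55, log2, SE) and did not pass at day 120 (1.51 ± 0.55, adjusted p = 0.0525, limma). The fibroblast markers were higher in grafts too, summing to 627 to 4562 FPKM at day 60 against 14.1 to 18.3 FPKM in isolated islets. Their part in the complement values was not tested.

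The membrane subunits of the phagocyte NADPH oxidase rose at both times, but at day 120 Cyba lost its call without any 1 of the day 120 grafts and Cybb without replicate 1, 2 or 4 of them. Cybb (gp91phox), its catalytic subunit, was at 4.50 to 21.6 FPKM at day 60 against 1.09 to 1.83 FPKM in isolated islets, with a difference of 1.76 ± 0.39 (log2, SE; adjusted p = 0.0041, limma). Cyba (p22phox) was at 22.2 to 138 FPKM at day 60 against 2.42 to 11.5 FPKM. At day 120 Cybb lay at 3.20 to 6.91 FPKM and Cyba at 13.03 to 21.4 FPKM. The cytosolic subunits Ncf1, Ncf4 and Rac2 rose at both times. Ncf1, the organiser subunit, rose by 2.67 ± 0.36 (log2, SE) at day 60 and by 1.91 ± 0.36 at day 120, and Ncf4 by 2.20 and 1.17. Ms4a7 and Ms4a6c, membrane proteins of the MS4A family, rose at day 60, and Ms4a7 rose at day 120. Ms4a6c shares 5.85% of its transcript 50-mers with Ms4a6b.

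The resident macrophage genes all rose at day 60, and all but Cd163 at day 120. In isolated islets they were under 0.5 FPKM, apart from F13a1 at 0.578 to 1.56 FPKM. Mrc1, the mannose receptor CD206, was listed at 0.239, 0.254, 0.037 and 0.029 FPKM in isolated islets, at 77.3, 6.34, 15.8 and 6.87 FPKM in day 60 grafts and at 6.06, 5.91, 3.60 and 7.60 FPKM in day 120 grafts. Folr2, a folate receptor, was listed at 0.093, 0.174, 0.437 and 0.166 FPKM in isolated islets, at 119, 11.3, 31.9 and 2.13 FPKM in day 60 grafts and at 9.17, 8.43, 5.07 and 6.97 FPKM in day 120 grafts. For both genes every graft was above every isolated islet library, and graft day 60 replicate 4 was the lowest graft of all for Folr2. Mrc1 rose by 3.87 ± 0.58 (log2, SE; adjusted p = 0.000665, limma) at day 60 and by 2.55 ± 0.58 (adjusted p = 0.00902) at day 120, and Folr2 by 4.03 ± 0.80 (adjusted p = 0.0029) and 2.77 ± 0.80 (adjusted p = 0.0238). F13a1, the A chain of coagulation factor XIII, and Clec10a (the lectin CD301a) rose at both times, Clec10a being listed at 0 to 0.225 FPKM in isolated islets, 4.87 to 93.7 FPKM at day 60 and 5.12 to 12.1 FPKM at day 120. Clec10a shares 8.49% of its transcript 50-mers with Mgl2. Cd163, the haemoglobin scavenger receptor, had the lowest mean of these 5 genes in both graft groups, at 0.948 to 14.5 FPKM at day 60 and 0.806 to 1.98 FPKM at day 120, and rose at day 60 (1.81 ± 0.50, log2, SE) but did not pass at day 120 (0.97 ± 0.50, adjusted p = 0.144, limma). Among 13 further resident genes, 11 were tested. At day 60, 11 rose (median difference 2.50 on the log2 scale), against 31.3% of all tested genes called higher. At day 120, 9 of these resident genes rose (median 2.104), against 24.3%. They included Stab1, a scavenging receptor of resident macrophages (2.21 ± 0.31, log2, SE, at day 60), the carbonyl reductase Cbr2 (4.43 ± 0.74) and the chemokine Pf4 (5.17 ± 0.74), which platelets also hold. The 4 other platelet markers summed to 2.26 to 19.9 FPKM at day 60 and 2.66 to 94.5 FPKM at day 120 against 0.744 to 2.17 FPKM in isolated islets, and their part was not tested. Where a gene is listed at 0 in an islet library, as for Clec10a, Trem2, Cbr2 and Pf4, the size of its difference depends on the pseudocount.

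The scavenging genes had the smallest median difference of any role, and 1 of the 2 tested rose at day 60 and none at day 120. Marco was at most 0.711 FPKM in any library and was listed at 0 in 6 of 12. Msr1 (scavenger receptor A) was at 0.022 to 0.231 FPKM in isolated islets, 0.832 to 9.37 FPKM at day 60 and 0.626 to 1.29 FPKM at day 120, and it rose at day 60 (1.63 ± 0.43, log2, SE; adjusted p = 0.0103, limma) but did not pass at day 120 (0.85 ± 0.43, adjusted p = 0.145). Cd14, the co-receptor for bacterial lipopolysaccharide, was listed at 24.02, 4.72, 3.04 and 4.29 FPKM in isolated islets, at 19.4, 2.91, 4.22 and 3.00 FPKM in day 60 grafts and at 3.18, 3.02, 1.30 and 4.37 FPKM in day 120 grafts. One library stood high in isolated islets and 1 at day 60, and the groups overlapped. Its day 60 difference of -0.22 ± 0.61 (adjusted p = 0.792) changed sign without isolated islet replicate 1. Of 11 further genes for scavenging and uptake of dying cells, 9 were tested. At day 60, 7 rose (median difference 1.38 on the log2 scale), against 31.3% of all tested genes called higher. At day 120, 2 of the 9 rose (median 0.68). The day 120 share is near the 24.3% of all tested genes called higher. Cd36, a fatty acid and lipoprotein receptor that adipocytes also express, was at 30.6 to 604 FPKM at day 60 against 3.97 to 4.35 FPKM in isolated islets, and the adipocyte markers summed to 66.7 to 2414 FPKM in the same grafts against 10.8 to 13.4 FPKM. Mertk, a receptor for dying cells, rose at day 60 (1.38 ± 0.29, log2, SE), as did the bridging protein Mfge8 (1.27 ± 0.34) and the ferritin receptor Scara5 (3.22 ± 0.58).

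Both lipid-associated genes rose at both times. Trem2, a lipid receptor, was listed at 0.646, 1.30, 0 and 0.165 FPKM in isolated islets, at 63.8, 8.08, 16.5 and 12.5 FPKM in day 60 grafts and at 4.02, 6.25, 5.71 and 7.01 FPKM in day 120 grafts. Every day 60 graft exceeded every day 120 graft, and both groups exceeded the isolated islets. Gpnmb, a glycoprotein of lysosome-rich phagocytes, was listed at 0.113, 0.149, 0.133 and 0.122 FPKM in isolated islets, at 62.0, 7.66, 18.4 and 41.3 FPKM in day 60 grafts and at 3.83, 6.88, 4.40 and 19.5 FPKM in day 120 grafts. It was high in replicate 4 of both graft groups. Trem2 rose by 3.74 ± 0.49 (log2, SE; adjusted p = 0.000316, limma) at day 60 and by 2.20 ± 0.49 (adjusted p = 0.00818) at day 120, and Gpnmb by 4.52 ± 0.56 (adjusted p = 0.000223) and 2.84 ± 0.56 (adjusted p = 0.00521). Of 17 further genes of this programme, 12 rose and 1 fell at day 60 (median difference 2.41 on the log2 scale), and 7 rose and none fell at day 120 (median 1.02). Of all tested genes, 31.3% and 24.3% were called higher at the 2 times, and 12.3% and 7.03% lower. The gene that fell at day 60 was the cholesterol exporter Abcg1 (-0.70 ± 0.24), named after its value was seen. The 4 that did not pass at day 60 were Cd9 (0.67), Cd63 (0.10), Abca1 (0.06) and Spp1 (-0.31). Their adjusted p ran from 0.282 to 0.878 (limma), and they too were named after their values were seen. Atp6v0d2, a subunit of the lysosomal proton pump, was at 2.98 to 19.3 FPKM at day 60 against at most 0.063 FPKM in isolated islets. Mmp12, the macrophage elastase, was at 9.64 to 66.4 FPKM against 0.772 to 1.32 FPKM, and Lgals3 (galectin-3) at 26.8 to 239.9 FPKM against 4.39 to 5.69 FPKM. Fabp5, a fatty acid binding protein, was at 26.0 to 171 FPKM against 4.70 to 15.8 FPKM, and at day 120 it did not pass (adjusted p = 0.281, limma). The list also held lipid-handling genes such as Fabp4 (5.19 at day 60), Plin2 (2.77) and Lpl (2.53), named after their values were seen. Adipocyte markers summed to 66.7 to 2414 FPKM in the day 60 grafts against 10.8 to 13.4 FPKM in isolated islets. The part of adipocytes in the values of this list was not tested.

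To compare proportions, each gene was also read relative to the macrophage signal of its own library, by subtracting the mean log2(FPKM + 1) of Csf1r, Cd68, Emr1, Aif1 and Mpeg1. This mean was 1.44 to 1.92 in isolated islets, 3.17 to 6.29 in day 60 grafts and 2.95 to 3.75 in day 120 grafts. The same limma test was then run over all genes. At day 60, 8 of the 28 tested genes outside the panel were higher relative to it and 1 was lower, against 0.543% of all tested genes called higher and 91.2% called lower. Those higher were Lyz1 and Lyz2 (3.11 ± 0.55 and 3.41 ± 0.48, log2, SE), Fcgr3 (1.92 ± 0.54), Gpnmb (1.79 ± 0.59), Tyrobp (1.75 ± 0.54), Clec10a (1.43 ± 0.57), Fcgr2b (1.25 ± 0.54) and Mrc1 (1.15 ± 0.54). Because the subtraction made most tested genes lower, the adjustment changed p little here. It took Mrc1 from 0.0425 to 0.0464, Fcgr2b from 0.0263 to 0.0294 and Clec10a from 0.0172 to 0.0198 (limma). The weaker of these calls are thus close to unadjusted ones. Cd14 was lower, as most genes were (-2.94 ± 0.60, adjusted p = 0.00012). None of the C1q genes passed relative to the panel, with differences of -0.19, 0.57 and 0.62 for C1qa, C1qb and C1qc and adjusted p from 0.234 to 0.695. The fit draws on the spread of all tested genes after the subtraction, so an SE can exceed what a gene's own spread would give. C1qc had SDs of 0.27, 0.36 and 0.13 relative to the panel in isolated islets, day 60 and day 120 grafts. The SE of its day 60 difference was 0.50. A gene that did not pass is therefore not shown to keep its proportion. Of the resident genes, Mrc1 and Clec10a passed, Folr2 (1.31 ± 0.63, adjusted p = 0.0508) and F13a1 (0.96 ± 0.57, adjusted p = 0.112) did not, and neither did Cd163 (-0.91 ± 0.54, adjusted p = 0.107). Of the scavenging genes, Msr1 did not pass (-1.09 ± 0.54, adjusted p = 0.056). The sign of both depends on the pseudocount, since with a pseudocount of 0.1 the differences were 0.10 for Cd163 and 0.21 for Msr1. Of the lipid-associated genes, Gpnmb passed and Trem2 did not (1.01 ± 0.55, adjusted p = 0.0823). The count of 8 was 5 without isolated islet replicate 2 or graft day 60 replicate 3, and 4 when Ptprc, Laptm5 and Tyrobp made the panel.

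At day 120, 4 of the 28 genes were higher relative to the panel, namely Lyz1 (2.47 ± 0.55, log2, SE), Lyz2 (2.76 ± 0.48), Tyrobp (1.60 ± 0.54) and Fcgr3 (1.63 ± 0.54), against 0.409% of all tested genes. Cd14 was again lower (-2.64 ± 0.60, adjusted p = 0.00314, limma), against 43.6% of all tested genes called lower. Neither the resident nor the lipid-associated genes passed, with Clec10a at 1.27 ± 0.57 (adjusted p = 0.0634) and Gpnmb at 1.16 ± 0.59 (adjusted p = 0.0957). The adjustment was stricter here than at day 60, since fewer of all tested genes were called. Clec10a did not pass with an unadjusted p of 0.0325, whereas Mrc1 passed at day 60 with 0.0425 (limma). Passing at 1 time only is therefore not a difference between the times. Most resident and lipid-associated genes were near 0 in isolated islets, and the panel gene Emr1 was low there too, so these relative differences depend on the pseudocount. With a pseudocount of 0.1 the Clec10a difference was 3.23, but it then rests on islet values of 0 to 0.225 FPKM. The day 120 count was 12 with a pseudocount of 0.1 and 3 with 5. The same count was 10 without graft day 60 replicate 1, and 2 without isolated islet replicate 3 or 4 or graft day 120 replicate 1 or 2.

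**Figure D3:**
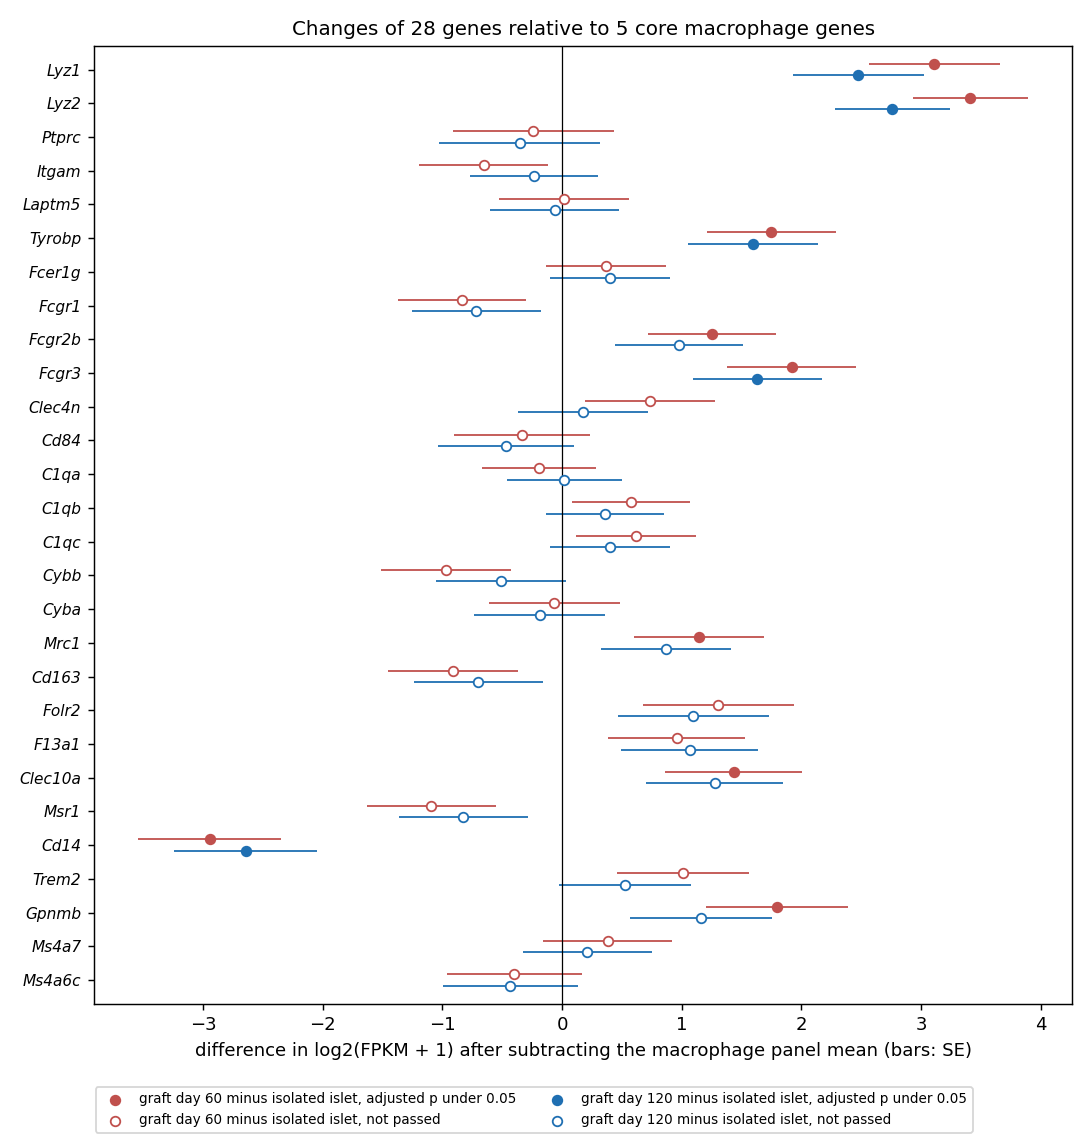
Differences between grafts and isolated islets in log2(FPKM + 1) after subtracting the mean of 5 core macrophage genes, for the 28 tested genes outside that panel (points, with SE bars; day 60 in red above day 120 in blue). Filled points have an adjusted p under 0.05, and they include Lyz1, Lyz2, Tyrobp and Fcgr3 to the right and Cd14 to the left at both times.

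Grafts also differed among themselves in these proportions. Across the 8 grafts, the narrowest ranges relative to the panel among genes outside it were those of Fcgr1 (0.76 on the log2 scale) and C1qc (0.78). Ptprc (3.74), Folr2 (3.07) and Gpnmb (2.89) had the widest ranges among the 33 genes tested. In graft day 60 replicate 4, Folr2 stood at -2.28 relative to the panel, Clec10a at -1.38, F13a1 at -1.07, Mrc1 at -0.95 and Cd163 at -2.97. Each was the lowest of the 8 grafts, while Gpnmb stood at 1.47, the highest. The low values were not limited to resident genes, since the scavenging gene Msr1 (-3.06) and C1qc (1.83) were also lowest there. In the other day 60 grafts Folr2 ran from 0.45 to 0.78 and Gpnmb from -0.31 to 0.02. Gpnmb was thus 19.4 times Folr2 in FPKM in that library, against 0.519, 0.677 and 0.578 times in day 60 replicates 1, 2 and 3. At day 120 replicate 4 again had the highest ratio, 2.80, against 0.417 to 0.868 in the others. Trem2 did not follow Gpnmb, standing at -0.18 relative to the panel in day 60 replicate 4, inside the range of the other day 60 grafts (-0.27 to 0.01). In the same library Cbr2 was at 4.25 FPKM, against 13.2 to 128 FPKM in the other day 60 grafts, and Cd5l, a secreted macrophage protein, was at 8.90 FPKM, against 1.03 to 12.7 FPKM. The collagen gene Col1a1 was at 127 FPKM in day 120 replicate 4, against 21.1 to 29.6 FPKM in the other day 120 grafts. In day 60 replicate 4 it was at 202 FPKM, below the 316 FPKM of day 60 replicate 1 and above the other day 60 grafts, and its part was not tested.

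**Figure D4:**
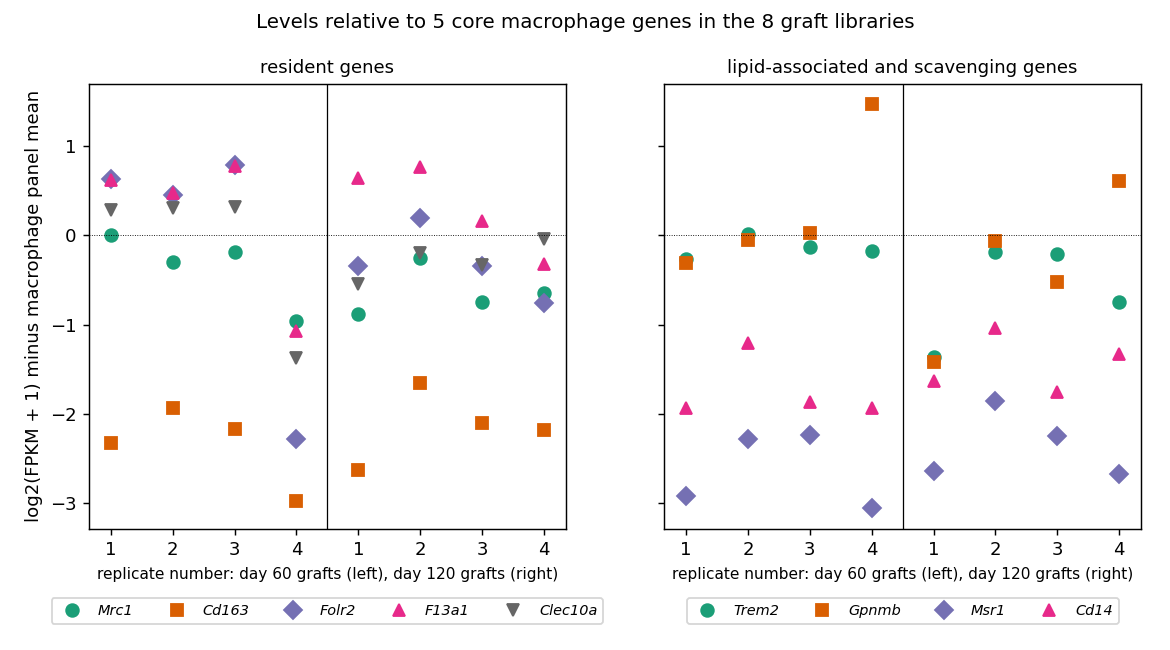
Levels relative to the 5 core macrophage genes, as log2(FPKM + 1) minus the panel mean, in the 8 grafts (x axis, replicate number, day 60 left of day 120), for resident genes (left panel) and lipid-associated and scavenging genes (right panel). In day 60 replicate 4 Folr2, Clec10a, F13a1, Mrc1, Cd163 and Msr1 are at their lowest and Gpnmb is at its highest, 1.47.

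Between day 120 and day 60 none of the 33 genes passed, with adjusted p from 0.49 to 0.626 (limma), against 0.00744% of all tested genes called higher and as many called lower. All 33 had a negative difference, from -1.70 (Lyz2) to -0.59 (Cybb), with a median of -1.17 on the log2 scale, against 0.03 for all tested genes, of which 45.7% were negative. At an unadjusted p under 0.05, 15 of the 33 were lower and none higher, against 5.29% of all tested genes lower. The genes move together within a library, so these counts are not 33 separate observations. Cyba, Trem2 and Ms4a7 were the only genes with every day 120 graft below every day 60 graft, which held for 1.38% of all tested genes. With limma's array weights, which gave graft day 60 replicate 3 a weight of 15.5 and the other day 60 grafts at most 0.485, 29 of the 33 genes were called lower, against 13.6% of all tested genes. Relative to the macrophage panel, none of the 28 genes passed and none had an unadjusted p under 0.05, against 0.00744% of all tested genes called higher and 0% called lower.

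Same-numbered grafts of the 2 times deviated together from their group means over all tested genes (correlations from 0.18 to 0.442), so the differences were also read within numbers. In the pairs numbered 1 and 3 all 34 genes were lower at day 120, with median differences of -2.72 and -1.35 on the log2 scale, against 0.04 and -0.09 for all tested genes. In the pair numbered 2, 25 genes were lower (median -0.30), and in the pair numbered 4, 23 were lower (median -0.31), against medians of 0.07 and 0.10 for all tested genes. Of all tested genes, 47.7%, 42.1%, 60.6% and 32.8% were lower in pairs 1 to 4. Altogether 20 genes were lower in all 4 pairs, among them Lyz1, Lyz2, C1qb, C1qc, Tyrobp, Trem2 and Gpnmb. All 5 resident genes had positive differences in the pair numbered 4, at 1.35 for Folr2, 1.16 for Clec10a, 0.61 for Cd163, 0.57 for F13a1 and 0.13 for Mrc1, while Gpnmb was lower (-1.04) and Trem2 too (-0.75). Positive differences were also listed there for the scavenging genes Cd14 (0.43) and Msr1 (0.20). Csf1r (0.11), Cybb (0.06), Itgam (0.03) and Emr1 (0.01) were positive as well. With replicate number as a block in the fit, the count for day 120 against day 60 was again 0.

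**Figure D5:**
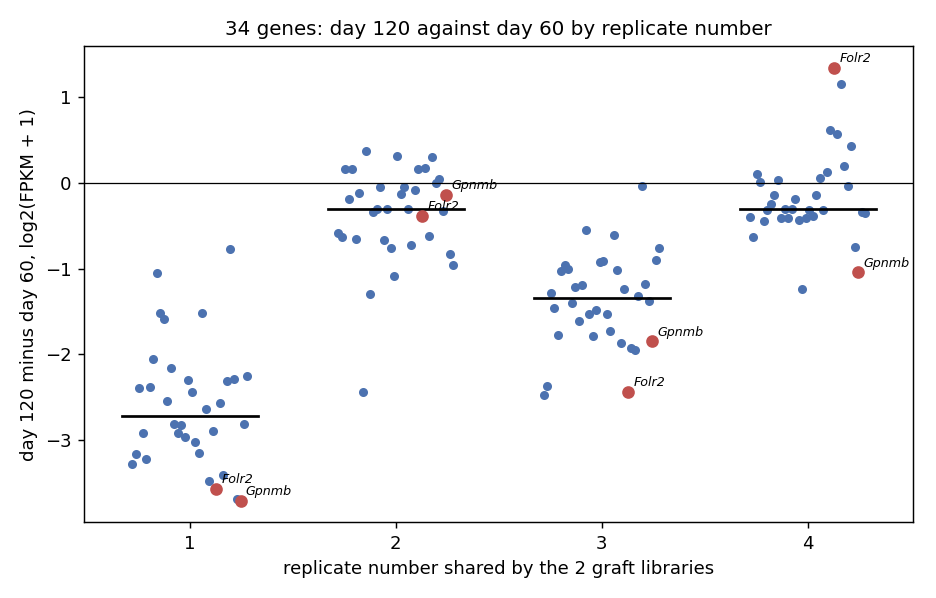
Differences of the 34 genes between day 120 and day 60 grafts of the same replicate number, in log2(FPKM + 1), with 1 point per gene and a line at the median of each pair. All points of the pairs numbered 1 and 3 are below 0, and in the pair numbered 4 Folr2 is at 1.35 and Gpnmb at -1.04.

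Regulators of macrophages and their entry were read last. Of 13 genes of the Csf1 axis and macrophage transcription factors, 11 were tested. At day 60, 7 rose and 1 fell (median difference 1.61 on the log2 scale), against 31.3% of all tested genes called higher and 12.3% lower. At day 120, 3 of the 11 rose and 1 fell (median 0.98). The day 120 share is near the 24.3% of all tested genes called higher. The gene that fell at both times was Cebpb (-1.30 and -1.67), named after its values were seen. Csf1, the main growth factor for Csf1r, was at 3.42 to 16.9 FPKM at day 60 and 3.72 to 10.7 FPKM at day 120 against 3.82 to 12.7 FPKM in isolated islets, and did not pass (adjusted p = 0.615 at day 60, limma). Il34, the other ligand of Csf1r, did not pass either (adjusted p = 0.236). The PU.1 gene, listed under its older symbol Sfpi1, was at 4.39 to 33.9 FPKM at day 60 against 1.37 to 3.99 FPKM and rose by 1.61 ± 0.46 (log2, SE; adjusted p = 0.0145), and it did not pass at day 120 (adjusted p = 0.114). Maf, a transcription factor of resident macrophages, rose by 3.15 ± 0.35 at day 60 and by 2.03 ± 0.35 at day 120, and Irf8 by 2.46 ± 0.27 and 1.46 ± 0.27. Csf2ra, a receptor chain for GM-CSF, rose by 1.29 ± 0.26 and 1.16 ± 0.26. Ccr2, the chemokine receptor of inflammatory monocytes, was at 2.84 to 38.9 FPKM at day 60 and 2.56 to 8.16 FPKM at day 120, against 0.169 FPKM or less in isolated islets, where 1 library was listed at 0. Ly6c2, also a monocyte gene, rose by 3.17 ± 0.58 and 2.13 ± 0.58, and fibronectin (Fn1), which fibroblasts also make, by 3.29 ± 0.69 and 2.28 ± 0.69. Of the 15 genes for monocytes and inflammatory activation, 10 were tested, 7 rose and 1 fell at day 60 (median 2.23), and 6 rose and 1 fell at day 120 (median 1.74). Of all tested genes, 31.3% and 24.3% were called higher at the 2 times, and 12.3% and 7.03% lower. The gene that fell was the cytokine Il6 (-1.45 and -1.76). Beside Ccr2, Ly6c2 and Fn1, those that rose at day 60 were Plac8, Itgal, Cx3cr1 and Retnla. Il1b (0.27, adjusted p = 0.673, limma) and Arg1 (0.23, adjusted p = 0.627) did not pass there. Tnf, Nos2, Ptgs2, Chi3l3 and Il10 were too low to test. Il6 and the genes listed after it were named after their values were seen. Of 16 further activating and inhibitory receptors, adaptors and kinases, 14 were tested. Of these, 12 rose at day 60 (median 1.87) and 8 at day 120 (median 1.12), against 31.3% and 24.3% of all tested genes. Clec7a (Dectin-1) led these receptors and kinases, at 9.65 to 31.6 FPKM at day 60 and 5.20 to 5.73 FPKM at day 120, against 0.324 to 1.29 FPKM in isolated islets. The inhibitory receptor genes Lilrb3 and Lilrb4 rose by 3.04 and 2.65 at day 60, and Blnk, an adaptor known from B cells, did not pass there (0.72 ± 0.31, adjusted p = 0.0783, limma). Neutrophils also express several of these receptors, and neutrophil markers summed to 22.1 to 194 FPKM at day 60 and 16.7 to 472 FPKM at day 120, against 2.94 to 7.09 FPKM in isolated islets, with the highest value in graft day 120 replicate 1. That library also had the highest day 120 value of 21 of the 34 genes, and the part of neutrophils was not tested.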

How the data were processed

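The deposited values are FPKM, made by the authors. The submitters' processing notes name mm9 as the build and list Cufflinks 2.1.1 and TopHat2. The gene annotation and any scaling between libraries are not given in the sources used here. FPKM are not counts, so log2(FPKM + 1) of the 13433 symbols with at least 1 FPKM in at least 4 libraries was tested with limma 3.58.1 (trend and robust variances, R 4.3.3, statmod 1.5.0) on all 12 libraries, two-sided, with Benjamini-Hochberg adjustment over those symbols and a threshold of 0.05. The script was tested on simulated data. Genes that are low are understated on this scale. The members, the lists and the panel were chosen with earlier results of these data known. All 34 members are named, and from each other list the genes with the smallest p, 3 at day 60 against isolated islets and 2 at day 120 against day 60. Csf1, Il34, PU.1 and Ccr2 are given whatever their result, and markers where needed beside a member. Some genes that this rule names are not reported here. Alternatives were pseudocounts, no filter, scalings, variances, array weights, a replicate block, another panel and leaving out libraries. Same-numbered grafts were correlated in their deviations (mean 0.314), and grafts and isolated islets were not (-0.0784 to 0.0199). Shared 50-mers were counted in GENCODE transcripts. The library depth is unknown, so no counting interval is given.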

Additional observations from a re-analysis of the deposited data

Results flagged for a closer look

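In 8 of the 102 sets of 4 libraries (34 genes in 3 groups), the highest or lowest library stood apart from its nearest neighbour by more of the range of the set than Dixon's 95% critical value allows, on the log2(FPKM + 1) scale. Chance gives such a gap in about 1 in 20 sets. Graft day 60 replicate 1 was the far library for Laptm5 (99.4 FPKM against 31.3 to 32.6 FPKM), Cybb (21.6 FPKM against 4.50 to 5.79 FPKM) and Ms4a7 (79.2 FPKM against 13.2 to 16.4 FPKM). In day 120 grafts, Ms4a6c was high in replicate 1 (12.2 FPKM against 5.99 to 6.29 FPKM) and Cyba was low in replicate 2 (13 FPKM against 19.8 to 21.4 FPKM). In isolated islets, C1qb was high in replicate 2 (21.1 FPKM against 10.1 to 10.9 FPKM), Fcgr1 was low in replicate 1 (0.034 FPKM against 0.384 to 0.442 FPKM), and Marco was at 0.164 FPKM in replicate 4 and listed at 0 in the others.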

How the results depend on the processing

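Among the settings, the block with only the groups compared and the fit without graft day 60 replicate 1 and isolated islet replicate 1 were chosen after seeing the data. The day 60 count of 32 stayed between 29 and 32 under every alternative run. The day 120 count of 26 was 9 with a pseudocount of 5 and ran from 14 to 31 with 1 library left out. Relative to the panel, the day 60 count of 8 was 5 with only the groups compared, with or without the replicate block, and 4 with the other panel, and ran from 5 to 11 with 1 library left out. The day 120 count of 4 relative to the panel was 12 with a pseudocount of 0.1 and 15 with array weights. It was 10 with only the groups compared, and 10 with the replicate block added to that. Without graft day 60 replicate 1 and isolated islet replicate 1 it was also 10, and it ran from 2 to 10 with 1 library left out. Day 120 against day 60 gave 0 in every setting except array weights, which gave 29, and relative to the panel it gave 0 in every setting. With the replicate block on all 12 libraries the counts were 32, 28 and 0, and 8, 4 and 0 relative to the panel, and the block changed no other count by more than 1.5 times except as given above. Cd14 at day 60 against isolated islets was the only difference of a member that changed sign. It ran from -0.78 to 0.36 with 1 library left out, at 0.36 without isolated islet replicate 1, 0.018 without graft day 60 replicate 2 and 0.0068 without graft day 60 replicate 4. At day 60, 29 of the 33 genes kept their call under every setting run, and Fcgr1, Cd163 and Msr1 lost theirs with quantile normalization, Fcgr1 and Cd163 also with a pseudocount of 5. At day 120, 8 of the 33 kept their side of the threshold under every setting. The cause of these shifts was not tested. Depth is unknown, and values under 1 FPKM are the least certain.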
